A study of Mus musculus with 4 samples.

Results

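The enzymes of the methionine cycle and of transsulfuration were examined in mouse liver with and without *Usp21*, the gene of a deubiquitylase. They were taken by symbol from a TPM table, which gives each gene's level scaled to transcript length and to the library total, and 9 of its 35739 genes are the set described here: *Mat1a*, *Mat2a*, *Gnmt*, *Bhmt*, *Ahcy*, *Cbs*, *Cth*, *Cdo1* and *Csad*. All 9 passed the filter, a mean over the libraries of 1 TPM or more, that left 9581 genes for testing.

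The study sequenced liver RNA of wild-type (WT) and *Usp21* knockout (*Usp21* KO) littermates, and 4 libraries were analysed here: WT replicates 2 and 3, and *Usp21* KO replicates 1 and 3. The knockout is constitutive, in every tissue, and was made by Cre-loxP excision of exons 3 and 4. The targeted embryonic stem cells were 129/Sv and the mice were of a mixed B6 and 129/Sv background, so that 129/Sv sequence linked to the targeted locus may travel with the genotype. *Usp21* itself was at 4.07 and 6.29 TPM in WT and at 1.64 and 2.93 TPM in *Usp21* KO (log2 fold change -0.92, limma adjusted p = 0.464), a level per gene that includes exons outside the deletion. All mice were 10 to 11 weeks old and were kept on a normal diet. Sex was not given, and 4 Y-linked genes were above 0 in every library. The labels number the libraries as mice and do not say more about their origin, so every error and p-value below measures only the spread between these libraries.

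In liver, methionine is joined to adenosine by methionine adenosyltransferase to give S-adenosylmethionine, the methyl donor of most methylation reactions. The S-adenosylhomocysteine left after methyl transfer is split to homocysteine, which is either methylated back to methionine or passed through transsulfuration to cysteine. Hepatocytes carry the full pathway, and cysteine made there feeds glutathione and, by oxidation and decarboxylation, taurine, which is joined to bile acids.

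The stretch before the transcription start was read for 6 of the 9 members, with 7 starts, from the RefSeq promoter table of GRCm38.p6. *Mat1a* and *Cth* had no entry, and *Cdo1* was left out of the reading. The sequences of *Csad*, *Mat2a* and *Gnmt* are shown because these 3 genes bear the comparisons described further on: *Csad* had the largest log2 fold change between genotypes, *Gnmt* the highest level, and *Mat2a* the lowest level. Each runs 5′ to 3′ on the strand of the gene over the 250 bases before the start, and capitals mark 3 motifs searched on both strands. The letters of the TATA box were TATAAA, those of the CCAAT box are in its name, and those of the GC box were GGGCGG. All 4 windows lie on the minus strand of the build.
*Csad*, inner start, chr15:102189044-102189293: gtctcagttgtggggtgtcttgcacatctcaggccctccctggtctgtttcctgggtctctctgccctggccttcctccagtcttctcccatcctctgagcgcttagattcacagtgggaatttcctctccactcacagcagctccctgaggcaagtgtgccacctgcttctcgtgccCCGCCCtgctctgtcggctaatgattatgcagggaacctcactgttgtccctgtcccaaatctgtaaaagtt
*Csad*, outer start, chr15:102205053-102205302: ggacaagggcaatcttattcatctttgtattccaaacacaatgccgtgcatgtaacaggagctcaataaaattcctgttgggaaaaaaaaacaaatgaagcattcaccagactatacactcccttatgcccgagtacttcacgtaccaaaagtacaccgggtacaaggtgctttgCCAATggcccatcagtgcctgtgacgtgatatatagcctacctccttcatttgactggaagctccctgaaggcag
*Mat2a*, chr6:72439557-72439806: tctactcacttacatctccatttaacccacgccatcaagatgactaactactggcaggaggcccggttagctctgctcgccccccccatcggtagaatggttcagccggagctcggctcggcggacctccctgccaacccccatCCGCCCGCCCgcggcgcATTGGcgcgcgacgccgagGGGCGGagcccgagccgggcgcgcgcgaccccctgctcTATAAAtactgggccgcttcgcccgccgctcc
*Gnmt*, chr17:46729166-46729415: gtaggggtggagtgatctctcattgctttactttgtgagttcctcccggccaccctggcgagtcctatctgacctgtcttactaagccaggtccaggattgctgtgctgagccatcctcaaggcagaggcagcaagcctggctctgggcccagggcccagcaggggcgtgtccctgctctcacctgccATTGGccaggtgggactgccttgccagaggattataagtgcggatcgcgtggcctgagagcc

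The *Mat2a* window differed in composition from the others shown. It was 67.6% G and C, with an observed-to-expected CpG ratio of 1.06 that exceeded 96.7% of the 32851 promoter windows of 27025 genes, whose medians were 52.4% and 0.374. It held a TATA box whose first base is at position -32 from the start, 1 CCAAT box and 3 GC boxes, of which those beginning at -106 and -102 overlap. The *Gnmt* window had 60.4% G and C, a CpG ratio of 0.263 and 1 CCAAT box. The inner *Csad* start had 55.6% G and C, a CpG ratio of 0.217 and 1 GC box, while the outer start had 44.8%, 0.405 and 1 CCAAT box. Among all promoter windows, the TATA box letters were found in 12.4%, the CCAAT box in 33.8% and the GC box in 32.7%, so that each box except the TATA box is common. An antioxidant response element core (TGACNNNGC, in 10.2% of all windows) and a C/EBP-ATF element (TGATGNAA, in 3.45%) were in none of the 7 windows read, and an E-box (CACGTG, in 6.02%) was only in that of *Cbs*. Such matches describe letters and not bound sites.

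The 9 genes spanned a wide range of levels, and the order of those levels was similar in both genotypes. In WT, *Gnmt* was first at 1933 ± 133 TPM (SD, n = 2) and stood apart from the next gene. *Bhmt*, *Cdo1*, *Ahcy* and *Mat1a* followed with means from 826 to 1125 TPM, and each neighbour in that stretch overlapped the next. *Cth* at 375 ± 103 TPM, *Cbs* at 168 ± 63.5 TPM, *Csad* at 84.3 ± 22.5 TPM and *Mat2a* at 16.6 ± 3.81 TPM came last, with no overlap between neighbours. In *Usp21* KO, *Gnmt* was again first at 1312 ± 200.4 TPM and *Mat2a* last at 22.9 ± 1.09 TPM, *Cdo1* stood second, and *Ahcy*, *Bhmt*, *Mat1a* and *Cth* overlapped from each to the next. The 9 levels added up to 7187 and 5929 TPM in the WT libraries and to 6361 and 4596 TPM in the *Usp21* KO libraries, which overlap.

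**Figure D1:**
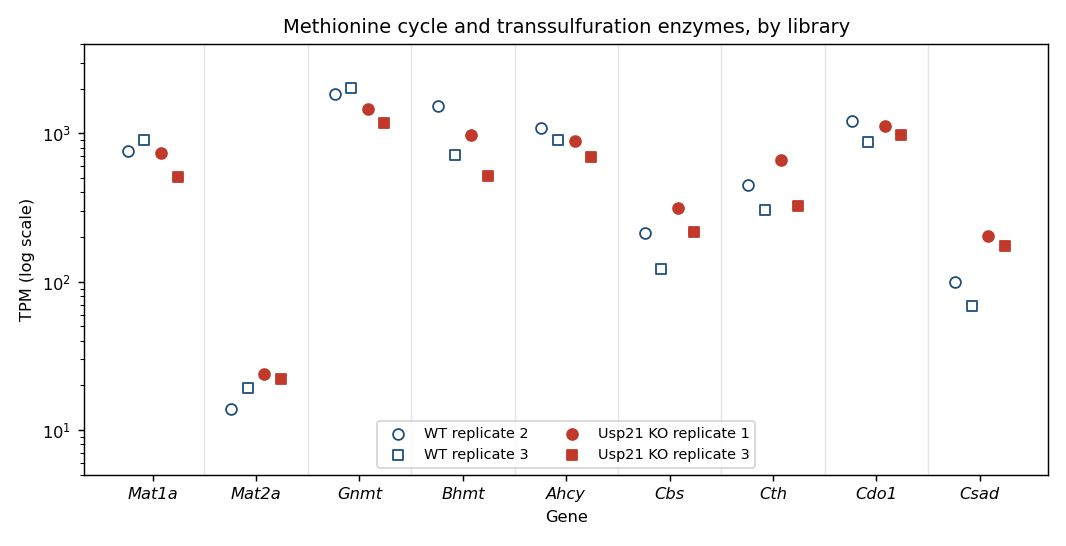
Level of each of the 9 enzymes in TPM on a log axis, with 1 point per library: open symbols are WT replicates 2 and 3, filled symbols *Usp21* KO replicates 1 and 3. Both filled *Csad* symbols, at 204.2 and 173.4 TPM, lie above both open ones, at 100.2 and 68.3 TPM, while the *Cdo1* symbols interleave.

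No enzyme passed the test between genotypes. Differences were tested with limma on log2(TPM + 1) over the 9581 genes with Benjamini-Hochberg adjustment, and 0 of 9 members had an adjusted p under 0.05, against 8 genes or 0.0835% of all tested. Without adjustment, *Gnmt* and *Csad* had a limma p under 0.05, 2 of 9 where 10.5% of all genes did. A difference of at least 2-fold was seen for *Csad* alone, 1 of 9, where 3.68% of all genes differed that much. Both *Usp21* KO libraries lay above both WT libraries for *Mat2a*, *Cbs* and *Csad*, 3 of 9, where 34.4% of all genes did. Both lay below for *Mat1a*, *Gnmt* and *Ahcy*, 3 of 9, where 10.9% of all genes did. Among the 822 genes averaging 100 TPM or more, a level that *Mat2a* does not reach, the shares were 21.9% above and 17.3% below. *Bhmt*, *Cth* and *Cdo1* overlapped between genotypes.

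The median log2 fold change of the 9 members was 0.02, beside 0.15 for all genes tested and 0.04 for those 822 abundant genes. When libraries were scaled to an equal upper quartile, the median of all genes moved from 0.15 to 0.04, and the genes whose groups did not overlap went from 75.9% higher to 56.9% higher. Relative to the median of all genes, *Csad*, *Cbs*, *Mat2a* and *Cth* lay above it and the other members below. An exact two-sided permutation of 2 against 2 libraries cannot give a p below 0.333, so none is quoted for single genes.

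**Figure D2:**
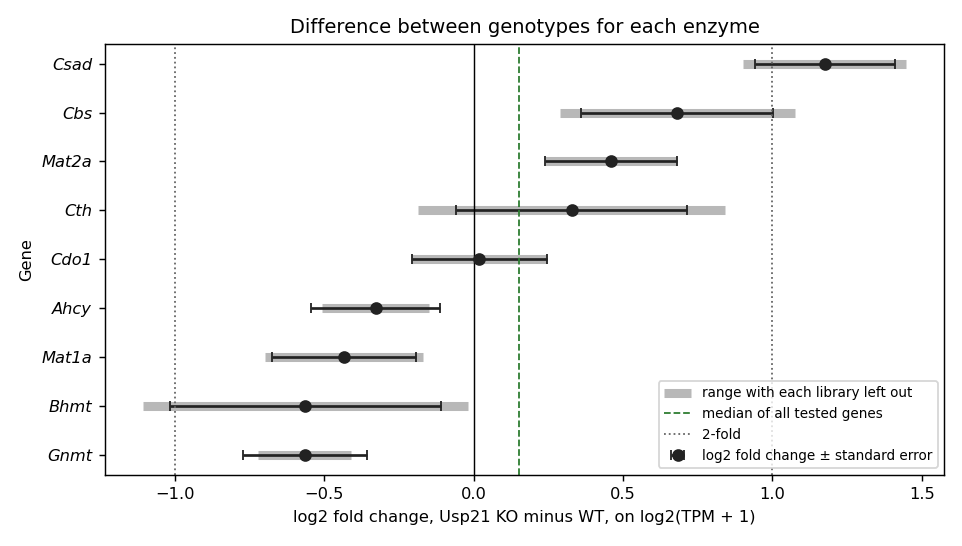
Difference between genotypes for each enzyme, *Usp21* KO minus WT on log2(TPM + 1), with points and black bars for the estimate ± standard error and grey bars for the range when each library is left out in turn. The dashed line is the median of all tested genes at 0.15 and dotted lines mark 2-fold; *Csad* lies at 1.18 and *Gnmt* and *Bhmt* lie lowest, at -0.57 and -0.56.

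Synthesis of S-adenosylmethionine was represented by *Mat1a*, the enzyme of adult hepatocytes, and *Mat2a*, the isoenzyme found in most other cells and in growing liver. *Mat1a* (ENSMUSG00000037798, GRCm38 chr14:41105035-41124412, plus strand) was at 758 and 895 TPM in WT and at 732 and 507 TPM in *Usp21* KO. The log2 fold change was -0.43 with a standard error of 0.24 (limma adjusted p = 0.534), and the gap between the lowest WT and the highest *Usp21* KO library was small. With single libraries left out it ran from -0.70 without *Usp21* KO replicate 1 to -0.17 without *Usp21* KO replicate 3. *Mat2a* (ENSMUSG00000053907, chr6:72432799-72439558, minus strand) was at 13.9 and 19.3 TPM in WT and at 23.7 and 22.2 TPM in *Usp21* KO, with both *Usp21* KO libraries higher. Its log2 fold change was 0.46 with a standard error of 0.22 (limma adjusted p = 0.502), and it ran from 0.24 without WT replicate 2 to 0.68 without WT replicate 3. Of its 4486 exon bases, 508 are shared with *Particl*, annotated on the opposite strand, and the strand setting of the counting was not given.

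Within each library, *Mat1a* exceeded *Mat2a* by 54.5 and 46.4 times in WT and by 30.9 and 22.9 times in *Usp21* KO. The means of this ratio of TPM were 50.4 ± 5.70 and 26.9 ± 5.66 (SD, n = 2 each), a difference of -0.92 on the log2 scale. The hepatocyte form stayed far above the other in all 4 libraries. The genotypes did not overlap, which follows from *Mat1a* being lower and *Mat2a* higher in both *Usp21* KO libraries.

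Use of the methyl donor was represented by *Gnmt*, which methylates glycine to sarcosine and so disposes of excess S-adenosylmethionine, and *Ahcy*, which splits S-adenosylhomocysteine. *Gnmt* (ENSMUSG00000002769, chr17:46725664-46729168, minus strand) was at 1839 and 2027 TPM in WT and at 1453 and 1170 TPM in *Usp21* KO, the largest gap between mean TPM among the members. Its log2 fold change was -0.57 with a standard error of 0.21 (limma adjusted p = 0.464). It kept the same sign with any library left out, from -0.72 to -0.41. *Ahcy* (ENSMUSG00000027597, chr2:155059310-155074497, minus strand) was at 1080 and 895 TPM in WT and at 886 and 692 TPM in *Usp21* KO, so that the lowest WT and the highest *Usp21* KO library nearly met. Its log2 fold change was -0.33 with a standard error of 0.22 (limma adjusted p = 0.585), and it ran from -0.51 without *Usp21* KO replicate 1 to -0.15 without *Usp21* KO replicate 3, with -0.19 without WT replicate 2. Of the 31-base words in *Ahcy* transcripts, 71.4% also occur in other annotated genes, all of them listed under 1 TPM on average, and how reads were shared among these copies was not tested.

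Return of homocysteine to methionine was represented by *Bhmt*, which takes the methyl group from betaine. *Bhmt* (ENSMUSG00000074768, chr13:93616675-93637961, minus strand) was at 1530 and 719 TPM in WT and at 972 and 518 TPM in *Usp21* KO. The libraries of 1 genotype differed from each other by more than the genotype means did, and the groups overlapped. The log2 fold change was -0.56 with a standard error of 0.45, the widest of the 9 (limma adjusted p = 0.653). Its value was decided by single libraries: without WT replicate 2 it was -0.02, without *Usp21* KO replicate 3 it was -0.11, without WT replicate 3 it was -1.11, and without *Usp21* KO replicate 1 it was -1.02. *Bhmt* shares 30.3% of its 31-base words with other genes, mostly with *Gm5096*, which averaged 0.995 TPM.

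Transsulfuration was represented by *Cbs*, which joins homocysteine and serine to cystathionine, and *Cth*, which splits cystathionine to cysteine. *Cbs* (ENSMUSG00000024039, chr17:31608894-31637238, minus strand) was at 213 and 123 TPM in WT and at 312 and 216 TPM in *Usp21* KO. Both *Usp21* KO libraries were higher, one of them by a narrow margin, and the groups overlapped when libraries were scaled to an equal upper quartile. The log2 fold change was 0.68 with a standard error of 0.32 (limma adjusted p = 0.496), and it moved to 0.29 without WT replicate 3 and to 1.08 without WT replicate 2. *Cth* (ENSMUSG00000028179, chr3:157894248-157925077, minus strand) was at 448 and 303 TPM in WT and at 661 and 323 TPM in *Usp21* KO. The groups overlapped, and *Usp21* KO replicate 1 was the highest of the 4. The log2 fold change of 0.33 with a standard error of 0.39 (limma adjusted p = 0.759) turned to -0.19 without that library.

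The ratio of *Bhmt* to *Cbs* sets the enzyme that keeps homocysteine in the cycle against the enzyme that commits it to cysteine. It was 7.20 and 5.86 in the WT libraries and 3.12 and 2.39 in the *Usp21* KO libraries, or 6.53 ± 0.944 and 2.76 ± 0.512 (SD, n = 2 each). The difference was -1.25 on the log2 scale, and *Bhmt* exceeded *Cbs* in every library. Within each genotype, both genes were lower in replicate 3 than in the other library, as were *Ahcy*, *Cth*, *Cdo1* and *Csad*. This ratio, and that of *Csad* to *Cdo1*, were chosen after the values were seen and carry no test.

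Oxidation of cysteine toward taurine was represented by *Cdo1*, which oxidises cysteine to cysteine sulfinate, and *Csad*, which decarboxylates the sulfinate to hypotaurine. *Cdo1* (ENSMUSG00000033022, chr18:46713193-46728395, minus strand) was at 1205 and 879 TPM in WT and at 1117 and 974 TPM in *Usp21* KO. The *Usp21* KO libraries lay inside the WT range. Its log2 fold change was 0.02 with a standard error of 0.23 (limma adjusted p = 0.980), and leaving out single libraries gave values from -0.21 to 0.25.

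*Csad* (ENSMUSG00000023044, chr15:102176999-102204724, minus strand) was at 100.2 and 68.3 TPM in WT and at 204.2 and 173.4 TPM in *Usp21* KO. Both *Usp21* KO libraries were above both WT libraries, with means of 189 ± 21.8 and 84.3 ± 22.5 TPM (SD, n = 2 each), a ratio of 2.24. The log2 fold change was 1.18 with a standard error of 0.23 (limma adjusted p = 0.402), and the adjusted p lay between 0.361 and 0.739 over the other settings tried. Leaving out single libraries gave 0.90 to 1.45, and the value under 2-fold, 0.90, was that without WT replicate 3. The gene has 23 annotated transcripts, and the outer of the RefSeq starts shown above lies beyond the end of the GENCODE gene; a level per gene does not tell which start was used. Of its 3831 exon bases, 278 are shared with *Zfp740* on the opposite strand, which averaged 4.75 TPM, well below *Csad*.

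The ratio of *Csad* to *Cdo1* was 0.0831 and 0.0777 in the WT libraries and 0.183 and 0.178 in the *Usp21* KO libraries. The means were 0.0804 ± 0.00381 and 0.180 ± 0.00343 (SD, n = 2 each), a difference of 1.17 on the log2 scale. The *Csad* level was a small part of the *Cdo1* level in all libraries, and the 2 libraries of each genotype lay close together.

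**Figure D3:**
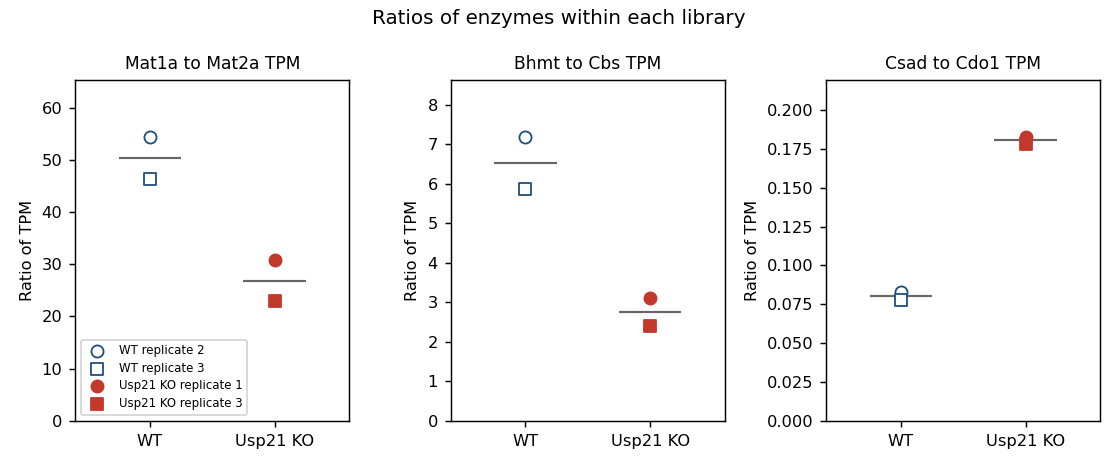
Ratios of TPM within each library for *Mat1a* to *Mat2a*, *Bhmt* to *Cbs* and *Csad* to *Cdo1*, with open symbols for WT, filled symbols for *Usp21* KO and lines at the group means. The genotypes are apart in each panel: 50.4 against 26.9, 6.53 against 2.76, and 0.0804 against 0.180.

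The genes whose pattern over the 4 libraries was most like that of *Csad* were sought among 4024 genes averaging 10 TPM or more, by the root mean square distance between log2(TPM + 1) values centred on each gene. They were *Ubr4*, encoding a ubiquitin ligase of the N-degron pathway, at 0.0971, *Tab2*, encoding an adaptor of TAK1 signalling, at 0.0996, and *Phf10*, encoding a subunit of a chromatin remodelling complex, at 0.105. *Ubr4* was at 14.1 and 8.09 TPM in WT and at 24.5 and 22.3 TPM in *Usp21* KO. Limma adjusted p-values for *Ubr4*, *Tab2* and *Phf10* were 0.464, 0.436 and 0.305. Among 4024 genes over 4 libraries some close matches arise in any case, and a link to *Csad* was not tested.

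The neighbouring pathways were read from 5 lists with 75 genes, of which 71 passed the filter. As among the 9 enzymes, 0 of them passed limma's adjusted threshold. Both *Usp21* KO libraries were higher for 23 of the 71, where 34.4% of all genes were, and lower for 15, where 10.9% were. The other 33 overlapped, and the median log2 fold change was 0.04 beside 0.15 over all genes. The shares over all genes depended on level and scaling. Among genes averaging 100 TPM or more, 21.9% were higher and 17.3% lower. With libraries scaled to an equal upper quartile, 24.5% of all genes were higher and 18.6% lower. Unadjusted limma p-values were under 0.05 for 14 of 71, where 10.5% of all genes had one, and *Got1* and *Gclc* differed by at least 2-fold, 2 of 71 where 3.68% of all genes did.

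Closest to the cycle were 8 tested partners, 4 higher and 2 lower, where 34.4% and 10.9% of all genes were, and 2 overlapping, with a median of 0.27. *Bhmt2*, a methyltransferase that uses S-methylmethionine, was at 88.7 and 78.2 TPM in WT and at 62.2 and 50.2 TPM in *Usp21* KO (log2 fold change -0.57, SE 0.19, limma adjusted p = 0.464). *Ahcyl2*, a relative of *Ahcy*, was at 1.95 and 2.04 against 4.07 and 2.82 TPM (0.56, SE 0.27, limma adjusted p = 0.502). *Mtr*, methionine synthase itself, stayed under the filter, between 0.411 and 1.15 TPM.

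Betaine and folate genes numbered 21 tested, with 3 higher and 6 lower, where 34.4% and 10.9% of all genes were, 12 overlapping and a median of -0.08. *Chdh*, which begins the conversion of choline to betaine, was at 15.6 and 15.1 TPM in WT and at 22.3 and 22.6 TPM in *Usp21* KO (0.52, SE 0.18, limma adjusted p = 0.464). *Slc25a32*, the mitochondrial folate carrier, was at 3.53 and 4.42 against 7.94 and 5.93 TPM (0.67, SE 0.26, limma adjusted p = 0.469). *Mthfs*, which returns formyl folate to the pool, was at 27.1 and 34.2 against 22.8 and 18.7 TPM (-0.54, SE 0.21, limma adjusted p = 0.472).

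Of the 11 small-molecule methyltransferases that use S-adenosylmethionine, 4 were higher and 2 lower, where 34.4% and 10.9% of all genes were, and 5 overlapped, with a median of 0.21. *Gamt*, which makes creatine from guanidinoacetate, was at 231 and 225 TPM in WT and at 154 and 105 TPM in *Usp21* KO (-0.84, SE 0.23, limma adjusted p = 0.464). *Carnmt1*, which methylates carnosine, was at 4.92 and 5.55 against 8.08 and 7.97 TPM (0.54, SE 0.21, limma adjusted p = 0.473).

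Polyamine and methylthioadenosine genes numbered 15, with 5 higher and 1 lower, where 34.4% and 10.9% of all genes were, 9 overlapping and a median of -0.02. An unadjusted limma p under 0.05 was found for 0 of the 15, where 10.5% of all genes had one. *Srm*, spermidine synthase, was at 14.4 and 17.0 TPM in WT and at 10.3 and 12.1 TPM in *Usp21* KO (-0.45, SE 0.21, limma adjusted p = 0.496). *Smox*, spermine oxidase, was at 1.10 and 0.272 against 1.68 and 1.68 TPM (0.71, SE 0.34, limma adjusted p = 0.496). *Sat1*, which acetylates polyamines, overlapped, at 32.5 and 47.5 against 70.8 and 43.7 TPM (0.49, SE 0.30, limma adjusted p = 0.568).

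Beyond *Csad* and *Cdo1*, 16 genes of cysteine, taurine and sulfide use were tested, with 7 higher and 4 lower, where 34.4% and 10.9% of all genes were, 5 overlapping and a median of 0.11. *Gclc*, the catalytic subunit of the first enzyme of glutathione synthesis, was at 67.0 and 43.0 TPM in WT and at 112.5 and 114.1 TPM in *Usp21* KO (1.06, SE 0.24, limma adjusted p = 0.450). *Got1*, the cytosolic aspartate aminotransferase, which can also use cysteine sulfinate, was at 98.1 and 83.8 against 263 and 150.5 TPM (1.13, SE 0.29, limma adjusted p = 0.464). *Kyat1*, a kynurenine aminotransferase that also acts on cysteine conjugates, was at 53.4 and 55.8 against 33.0 and 32.7 TPM (-0.72, SE 0.16, limma adjusted p = 0.449). An unadjusted limma p under 0.05 was found for 6 of the 16, where 10.5% of all genes had one, and both directions occurred among the 6. The remaining 3 of these were named after their values were seen. *Fmo1*, a flavin monooxygenase that can oxidise hypotaurine to taurine, was at 129 and 132 against 173 and 175 TPM (0.41, SE 0.15). *Kyat3*, a relative of *Kyat1*, was at 77.2 and 76.0 against 101 and 147 TPM (0.66, SE 0.22). *Slc6a6*, the taurine transporter, was at 21.4 and 19.0 against 13.7 and 11.3 TPM (-0.66, SE 0.20).

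**Figure D4:**
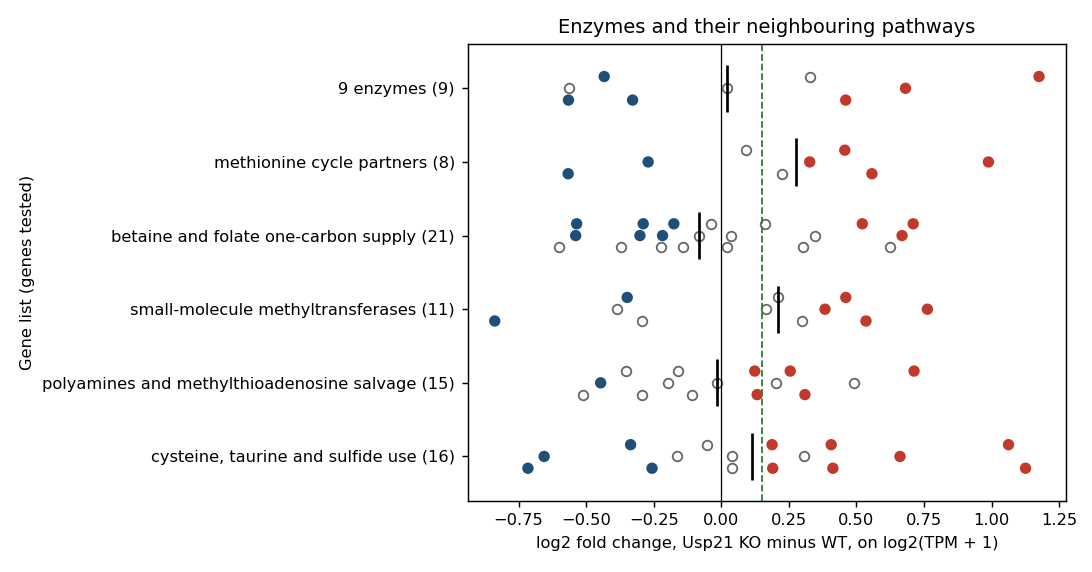
Log2 fold change, *Usp21* KO minus WT on log2(TPM + 1), of the 9 enzymes and the tested genes of 5 neighbouring lists, with 1 point per gene. Red points have both *Usp21* KO libraries above both WT libraries, blue points both below, open points overlap, black ticks are list medians and the dashed line is the median of all genes at 0.15; the list medians run from -0.08 to 0.27.

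A table of TMM-scaled CPM, read counts scaled to library size without regard to length, of the same libraries could be set beside these values for 1 member only. *Mat2a* was at 215 and 202 CPM in WT and at 347 and 258 CPM in *Usp21* KO, from 28, 22, 52 and 28 reads. On this scale both *Usp21* KO libraries were higher (edgeR log2 fold change 0.55, adjusted p = 0.821). With the strand setting not given and exon bases shared with *Particl*, the origin of these reads was not tested. The other 8 members had at most 1 read per library there, under the floor of 3 reads, so no fold is given. Of 682 abundant genes, each at 100 TPM or more in all 4 libraries, that table gave 428 a value of 0 throughout, so a 0 there does not show that a gene was silent.

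Some marker levels differed between genotypes beside these results. Of all tested genes, 34.4% had both *Usp21* KO libraries above both WT libraries and 10.9% had both below, so such separation is common. The 8 hepatocyte markers, all above 0 in every library, added up to 84527 and 67846 TPM in WT and to 71443 and 63440 TPM in *Usp21* KO, which overlap. Of the 8, *Alb*, the largest part of the sum, and *Cyp2e1* were lower and *Tat* and *Fabp1* higher in both *Usp21* KO libraries, and the other 4 overlapped. The 6 stellate cell and fibroblast markers added up to 54.6 and 45.5 against 84.1 and 63.4 TPM, with *Dcn* and *Reln* higher in both *Usp21* KO libraries, and the 6 cholangiocyte markers to 14.6 and 15.9 against 38.0 and 24.5 TPM, most of it *Spp1*. Of these 6, *Spp1* and *Krt19* were higher in both *Usp21* KO libraries, *Krt19* at 0.196 and 0.263 against 0.998 and 1.28 TPM, while *Krt7*, *Epcam* and *Cftr* averaged under 1 TPM and overlapped. Summed Kupffer cell markers ran from 54.0 to 142 TPM, endothelial from 34.9 to 54.9 TPM and red cell from 719 to 911 TPM. Each of these sums overlapped between genotypes. Among the single markers, *Csf1r*, *Hbb-bt* and *Hba-a1* were lower and *Lyve1* was higher in both *Usp21* KO libraries, and the others overlapped. *Lyve1* was low throughout, at 0.651 and 0.298 TPM in WT and at 2.91 and 1.14 TPM in *Usp21* KO. The 6 lymphocyte markers added up to 3.55 and 3.68 TPM in WT and to 3.53 and 2.62 TPM in *Usp21* KO, so the groups nearly met. Of these, *Ptprc* and *Cd8a* were higher and *Cd3e* lower in both *Usp21* KO libraries, all under 1 TPM. The 6 pancreatic markers, from 29.3 to 43.4 TPM in sum, were slightly lower in both *Usp21* KO libraries. Of these, 4 were at 0 in all libraries. Nearly all of the sum was *Cela1*, at 42.2 and 30.7 TPM in WT and at 28.7 and 30.6 TPM in *Usp21* KO. All 5 kidney markers were at 0. The part of these shifts in the values of the 9 enzymes was not tested. In whole liver, fewer cells of a type and less RNA per cell cannot be told apart.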

How the data were processed

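Liver RNA was extracted with ISOGEN II and sequenced on an Illumina MiSeq. The deposited tables hold TPM per gene, log2(TPM + 1) of the same values, and TMM-scaled CPM, a library-scaled signal of gene counts; a log version of the last was not used here. The submitters' processing notes name Salmon, HTSeq, edgeR, deepTools and Partek and the mm10 build, with no versions and no order, and the strand setting was not given in the sources used here. TPM keeps no depth, so the number of reads behind a TPM value is unknown. The steps of the CPM values gave whole reads for 100% of values within 0.02 of a read, 102898 to 148164 reads per library.

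Genotypes were compared, 2 against 2 libraries, with limma 3.58.1 (lmFit, eBayes with trend) in R 4.3.3 on log2(TPM + 1), for genes averaging 1 TPM or more over the libraries, two-sided, with Benjamini-Hochberg adjustment and a threshold of 0.05. A fold change on this scale understates that of low genes. As an alternative on the recovered reads, edgeR 4.0.16 called 12 of 5146 genes, and limma on the CPM values called 1. Statistics were tested on simulated data with noise independent between genes and libraries, and the outcome is not given here. The members and gene lists were chosen with earlier results of these data known. Named were all members, and of each neighbouring list the genes with the smallest unadjusted p up to 3, since none passed the adjusted threshold, except that some of these are not reported here; *Mtr*, *Fmo1*, *Kyat3* and *Slc6a6* were named after their values were seen. Of *Csad*, the member with the largest log2 fold change, the 3 genes nearest in pattern were named. Promoters came from RefSeq (GRCm38.p6), gene positions and transcripts from GENCODE M21 (GRCm38). *Xist* was not analysed here.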

Additional observations from a re-analysis of the deposited data

How the results depend on the processing

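The alternatives were 2 other pseudocounts, a stricter filter and none, upper quartile scaling, no moderation of variances, both uses of the CPM table, and each library left out in turn, where a genotype left with 1 library was assumed to vary like the other. Of 92 member values under them, 88 kept their direction. The filters and the moderation cannot change the log2 fold change of a member, so the direction was fixed in advance under those settings. In the settings that kept every library, 0 members passed the adjusted threshold. *Cdo1* reversed to -0.11 under upper quartile scaling, to -0.21 without WT replicate 3 and to -0.08 without *Usp21* KO replicate 1, and *Cth* to -0.19 without *Usp21* KO replicate 1 (with single libraries left out, *Cdo1* ranged from -0.21 to 0.25 and *Cth* from -0.19 to 0.84); the cause was not tested. The number of members at least 2-fold apart, 1, became 0 in both uses of the CPM table, where 1 member could be read, and ranged from 1 to 2 with single libraries left out. It held *Cbs* beside *Csad* without WT replicate 2, *Bhmt* beside *Csad* without *Usp21* KO replicate 1, and *Bhmt* alone without WT replicate 3. No paired analysis was possible because the genotypes share only 1 replicate number. Over all genes, the 8 adjusted calls became 4 with no filter, 0 without moderation and 0 with any library left out, against 12 with edgeR and 1 with limma in the CPM table, and the 353 genes at least 2-fold apart became 820 with a pseudocount of 0.1, 115 with 5, 203 under the stricter filter, 463 to 695 with a library left out, and 3134 and 2915 in the CPM table. TPM keeps no depth, so the counting error of single values is not known.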
